A study of Arabidopsis thaliana with 30 samples.

Results

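The comparison described here set seedlings of the Arabidopsis thaliana mutant Δlinda against the wild type Col-0, both harvested 3 h after exposure to Zeocin, across all genes. It rests on 7 RNA sequencing libraries of the 30 in the series, chosen by their labels alone: 3 libraries of Col-0 and 4 of Δlinda. All 7 came from whole seedlings, 14 days old, kept at 10 h of light and 14 h of darkness per day and then placed in liquid medium with 80 µg/ml Zeocin. The other groups used below were the same genotypes in mock medium (4 Col-0 and 3 Δlinda libraries), in normal light (4 and 4) and after 2 kJ UV-C (4 and 4). The sources used here do not give how Δlinda was made, how many independent lines it stands for, or whether seedlings were pooled. One protocol sentence calls the Zeocin medium mock, which the sample titles contradict, and the titles were followed.

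Zeocin is an antibiotic of the phleomycin family that cuts both strands of DNA. In plants, such breaks activate the kinase ATM and the transcription factor SOG1, which switches on genes of recombination repair and of cell cycle arrest. LINDA is a long noncoding RNA gene named for its link to DNA damage. The comparison asks whether seedlings with an altered LINDA locus hold different transcript levels once breaks have formed.

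Levels are counts per library total (CPM) after TMM scaling, and differences are log2 folds of Δlinda over Col-0 ± SE from edgeR, so that a negative value means a lower level in Δlinda. Values of single libraries are listed in the order of replicates 1 to 3 of Col-0 and 1 to 4 of Δlinda. A gene was called at a Benjamini-Hochberg adjusted p under 0.05 in edgeR's quasi-likelihood test over 19917 genes. In bulk seedlings, fewer cells of a type and less RNA per cell cannot be told apart. The labels do not say that replicates were separate cultures, so p-values measure only the spread between these samples.

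The 7 libraries held 11.7 M to 13.8 M counts in genes whose decimals could be placed. The wild-type library Col-0 replicate 1 stood apart from the other wild-type libraries. On the first principal component of the 7 libraries (45.8% of the variance) it lay at -5.79, among the Δlinda libraries at -36.8 to -1.07, while Col-0 replicates 2 and 3 lay at 21.5 and 40.7. Its deviations from the Col-0 mean ran with those of Δlinda replicate 3 from the Δlinda mean (r = 0.57 across 14957 genes, which are not independent replicates). Plastid transcripts with clear decimals (84 genes) took 0.0147%, 0.0112% and 0.0180% of counts in Col-0 and 0.0147%, 0.0125%, 0.0324% and 0.0106% in Δlinda, with the highest share in Δlinda replicate 3 (exact permutation test, two-sided, p = 0.914, where 3 against 4 cannot go below 0.0286). Mitochondrial transcripts with clear decimals (65 genes) had means of 0.00183% ± 0.000567 (SD, n = 3) and 0.00342% ± 0.00302 (SD, n = 4), again with the highest share in Δlinda replicate 3 (exact permutation p = 0.6). With unclear genes kept at their most likely placement, plastid genes took 0.0899% to 0.797% of counts. Mitochondrial genes then took 0.0126% to 0.0913%, and both shares were highest in Δlinda replicate 3. The ribosomal RNA genes had unclear decimals. At their most likely placement their shares ran from 0.177% to 0.373% in Col-0 and from 0.139% to 0.391% in Δlinda (exact permutation p = 0.943).

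The LINDA locus itself was measured as the noncoding gene AT3G00800 on chromosome 3. No table used here ties that identifier to the name, which is general knowledge of the study. What was changed at the locus in the mutant was not known here, so the level was not used to check the labels. AT3G00800 had 32.7, 45.8 and 49.7 CPM in Col-0 and 14.8, 27.6, 9.74 and 25.2 CPM in Δlinda. Every Δlinda library lay below every Col-0 library, and Δlinda still held the transcript at a readily detected level. The log2 fold was -1.14 ± 0.33 and it missed the threshold (edgeR adjusted p = 0.148, and 0.0438 without Col-0 replicate 1, where 3.81% of all genes were called). AT3G00800 was not called when any other single Zeocin library was left out.

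Of the listed neighbours of the locus, none was called. AT3G45730 had 115, 213 and 216 CPM in Col-0 and 350.3, 289, 152 and 271 CPM in Δlinda, with 3 Δlinda libraries above the range of Col-0 and replicate 3 inside it (log2 fold 0.55 ± 0.30, edgeR adjusted p = 0.444). AT3G45740 stood at 16.5, 15.6 and 19.1 CPM in Col-0 and 15.2, 15.1, 14.9 and 14.1 CPM in Δlinda, slightly lower in every Δlinda library (log2 fold -0.20 ± 0.13, edgeR adjusted p = 0.511). AT3G45710 showed 12.8, 11.03 and 6.83 CPM in Col-0 and 14.5, 16.97, 22.9 and 16.1 CPM in Δlinda, higher in every Δlinda library (log2 fold 0.78 ± 0.30, edgeR adjusted p = 0.268), and its value in mock was 0.80 ± 0.30. The listed neighbour AT3G45720 had too few counts to be tested.

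**Figure D1:**
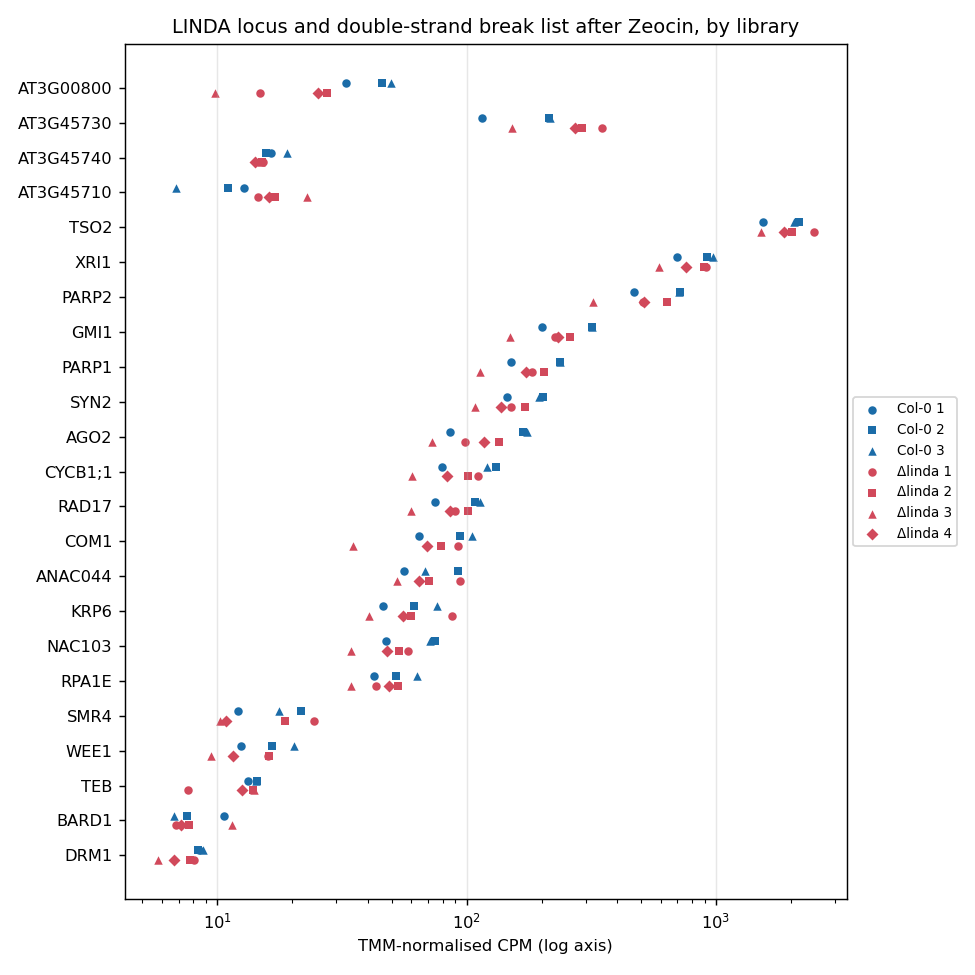
TMM-normalised CPM (log axis) of AT3G00800, its listed neighbours and the tested members of the double-strand break list in each of the 7 Zeocin libraries (blue, Col-0; red, Δlinda; marker shapes give the replicate). AT3G00800 separates by genotype without overlap. The groups overlap in 18 of 19 double-strand break genes, where 8.76% of all genes had groups that did not overlap, and Col-0 replicate 1 and Δlinda replicate 3 are the lowest of their group in 17 each.

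Genes of the double-strand break response were detected in both genotypes, and none passed the test. Of 24 listed genes 19 could be tested, 18 had a negative log2 fold and 1 a positive one, with a median of -0.27 beside a median of 0.01 over all 19917 genes. The smallest adjusted p in the list was 0.301 (edgeR). At an unadjusted p under 0.05, 2 members lay below 0, AGO2 and NAC103, and 0 above, where 6.81% of all genes passed that limit in the lower direction. Replicate 1 was the lowest Col-0 library for 17 of the 19 genes and replicate 3 the lowest Δlinda library for 17.

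The genes that stop the cell cycle are given first. SMR4, an inhibitor of cyclin-dependent kinases, had 12.2, 21.7 and 17.61 CPM in Col-0 and 24.4, 18.6, 10.2 and 10.8 CPM in Δlinda. KRP6, another inhibitor of these kinases, had 46.2, 61.6 and 75.9 CPM in Col-0 and 87.2, 59.5, 40.5 and 55.3 CPM in Δlinda. The groups overlapped in both genes, with log2 folds of -0.10 ± 0.37 and -0.01 ± 0.21. WEE1, the kinase that restrains entry into mitosis, had 12.5, 16.6 and 20.4 CPM in Col-0 and 15.9, 16.2, 9.45 and 11.6 CPM in Δlinda (-0.31 ± 0.27). CYCB1;1, a B-type cyclin that accumulates in damaged plant cells, had 79.7, 131 and 120.1 CPM in Col-0 and 111, 102, 60.4 and 83.7 CPM in Δlinda (-0.31 ± 0.18). The groups overlapped again, and Δlinda replicate 3 was the lowest library in each of these 4 genes. ANAC044, a transcription factor close to SOG1, had 55.9, 92.04 and 68.2 CPM in Col-0 and 94.4, 70.3, 52.5 and 64.1 CPM in Δlinda (-0.03 ± 0.39). NAC103, a further NAC factor of the damage response, had 47.6, 74.4 and 71.1 CPM in Col-0 and 57.9, 53.3, 34.5 and 48.01 CPM in Δlinda (-0.41 ± 0.19, adjusted p = 0.367).

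The repair genes proper overlapped as well. PARP1, a poly(ADP-ribose) polymerase that binds broken ends, had 151, 236 and 238 CPM in Col-0 and 183, 204, 114 and 173 CPM in Δlinda (-0.31 ± 0.18). Its relative PARP2 had 470.1, 719 and 712 CPM in Col-0 and 509, 636, 319.6 and 513 CPM in Δlinda (-0.36 ± 0.18). SYN2, a cohesin subunit, had 145, 203 and 195 CPM in Col-0 and 151, 171, 108 and 138 CPM in Δlinda (-0.35 ± 0.17). In all 3 genes Col-0 replicates 2 and 3 were the highest and Δlinda replicate 3 the lowest library. GMI1, which acts in recombination, had 201, 318 and 317 CPM in Col-0 and 225, 260.4, 149.8 and 231 CPM in Δlinda (-0.36 ± 0.24). COM1, which processes broken ends, had 64.1, 93.6 and 105 CPM in Col-0 and 91.98, 78.8, 34.99 and 69.4 CPM in Δlinda (-0.35 ± 0.26). XRI1, induced by X-rays and active in meiosis, had 696, 922 and 974 CPM in Col-0 and 907, 894, 589.9 and 759 CPM in Δlinda (-0.13 ± 0.17). The lowest library was Δlinda replicate 3 in all 3. RAD17, a checkpoint clamp loader, had 74.6, 108 and 113 CPM in Col-0 and 89.4, 101, 59.9 and 85.96 CPM in Δlinda (-0.23 ± 0.19), and RPA1E, a single-strand binding subunit, had 42.5, 52.2 and 63.3 CPM in Col-0 and 43.4, 52.9, 34.3 and 48.6 CPM in Δlinda (-0.23 ± 0.21).

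TSO2, the small subunit of ribonucleotide reductase, which supplies nucleotides for repair, had the highest levels of the list and the only positive fold. It stood at 1548, 2146 and 2052 CPM in Col-0 and 2465, 2011, 1520.0 and 1879 CPM in Δlinda (0.04 ± 0.18). TEB, the polymerase theta of end joining, had 13.3, 14.5 and 14.3 CPM in Col-0 and 7.65, 13.9, 13.99 and 12.6 CPM in Δlinda (-0.22 ± 0.21). AGO2, an Argonaute protein, had 85.5, 168 and 174 CPM in Col-0 and 98.5, 135, 72.6 and 118 CPM in Δlinda (-0.43 ± 0.18, edgeR adjusted p = 0.301). Without Col-0 replicate 1 its edgeR adjusted p was 0.0148. It was the only member of the list called there, where 3.81% of all genes were called. Without any other single Zeocin library its edgeR adjusted p was 0.153 to 0.997. With means under 10 CPM, BARD1 had -0.0038 ± 0.21 and DRM1 had -0.27 ± 0.37. Members with unclear decimals, among them SMR7, SMR5, BRCA1 and NAC085, were not tested. Under a placement that grouped libraries by treatment alone, chosen after these results had been seen, SMR7 and BRCA1 became readable. BRCA1 then had 330, 453 and 527 CPM in Col-0 and 324, 421, 242 and 335 CPM in Δlinda (-0.40 ± 0.22, edgeR adjusted p = 0.437), and SMR7 had a log2 fold of 0.01 ± 0.27.

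Of 21 further genes of damage sensing and other repair, all were tested and 0 were called (median log2 fold -0.10). POLK, a translesion polymerase, had 62.1, 82.8 and 93.1 CPM in Col-0 and 50.2, 69.7, 49.7 and 67.9 CPM in Δlinda (log2 fold -0.42 ± 0.13, edgeR adjusted p = 0.163). UVR3, a photolyase, had a log2 fold of -0.58 ± 0.28 (edgeR adjusted p = 0.379). SOG1 itself had 14.7, 19.5 and 17.9 CPM in Col-0 and 20.14, 16.3, 16.9 and 16.5 CPM in Δlinda (0.01 ± 0.13), with overlapping groups.

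Across all genes, 24 of 19917 were called, 0.121% of those tested: 22 were lower in Δlinda (0.11%) and 2 were higher (0.01%). At an unadjusted p under 0.05 there were 2609 genes (13.1%), 1253 higher and 1356 lower. The called folds ran from 1.66 to 9.24. In 23 of the 24 genes the libraries of the 2 genotypes did not overlap in CPM, where 8.76% of all tested genes had groups that did not overlap. That is no independent result, since the genes were called on the same libraries. The 24 genes included 2 of the ethylene list, 1 of salicylic acid defence and 1 of pattern-triggered immunity. In 18 of the 22 lower genes Col-0 replicate 1 was the lowest wild-type library. Entries with restored decimals were present in 6 of the 24 genes (AT1G62510, FRO6, EBF2, RAP2.2, AT3G46600 and MCA2).

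**Figure D2:**
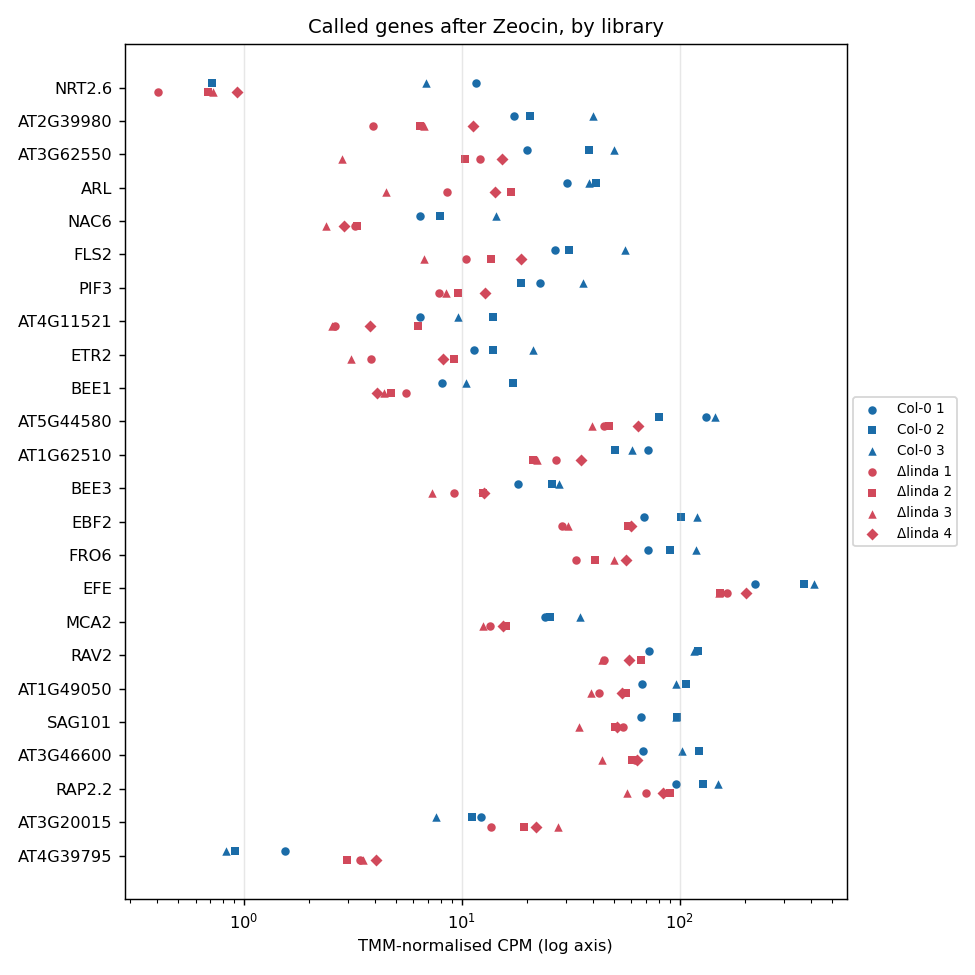
TMM-normalised CPM (log axis) of the 24 called genes in the 7 Zeocin libraries, ordered by log2 fold (blue, Col-0; red, Δlinda; marker shapes give the replicate). The genotypes separate in 23 genes and overlap in NRT2.6, where Col-0 replicate 2 sits with the Δlinda libraries.

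Of the ethylene list, which like all lists was written with earlier results of these data known, EBF2 and ETR2 were called, both lower in Δlinda. EFE and RAP2.2 were not on that list and are described beside them after they were called, in a set of calls of which 22 of 24 were lower. Ethylene is a gaseous hormone of stress and ageing. Its binding switches off its receptors, which frees the transcription factor EIN3 from breakdown by the F-box proteins EBF1 and EBF2. EFE, an ACC oxidase that carries out the last step of ethylene synthesis, had 222, 370.3 and 412 CPM in Col-0 and 164, 153, 151 and 202 CPM in Δlinda. All 4 Δlinda libraries lay between 151 and 202 CPM and below the lowest Col-0 library (log2 fold -0.9989 ± 0.21, edgeR adjusted p = 0.0416). ETR2, an ethylene receptor, had 11.4, 13.9 and 21.3 CPM in Col-0 and 3.83, 9.197, 3.102 and 8.19 CPM in Δlinda (log2 fold -1.35 ± 0.28, edgeR adjusted p = 0.0416). EBF2, the F-box protein, had 68.3, 101 and 120.3 CPM in Col-0 and 28.9, 57.9, 30.6 and 59.6 CPM in Δlinda (log2 fold -1.13 ± 0.20, edgeR adjusted p = 0.0198), with Δlinda replicates 1 and 3 the lowest. Restored decimals were present in 6 of the 7 EBF2 entries, and EBF2 was left out where decimals were placed without the genotype groups. RAP2.2, an ethylene response factor known from low oxygen responses, had 96.4, 128 and 149.9 CPM in Col-0 and 69.9, 90.2, 57.3 and 83.5 CPM in Δlinda (log2 fold -0.73 ± 0.15, edgeR adjusted p = 0.04).

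Of the 10 genes of the ethylene list 9 were tested, 2 were called lower and 0 higher, with a median of -0.28, where 0.11% of all genes were called lower. With single Zeocin libraries left out, the median ran from -0.42 without Col-0 replicate 1 to -0.0066 without Col-0 replicate 2. EIN3, the central transcription factor, had 105, 120.0 and 128 CPM in Col-0 and 72.9, 103, 91.5 and 103 CPM in Δlinda and was not called (log2 fold -0.34 ± 0.11, edgeR adjusted p = 0.194).

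The next called genes code for transcription factors and a growth protein and were set together after they were called. The auxin and growth list and the clock list held 0 called genes. PIF3, a helix-loop-helix factor that phytochromes mark for breakdown in light, had 22.9, 18.6 and 36.1 CPM in Col-0 and 7.86, 9.63, 8.44 and 12.8 CPM in Δlinda. The Δlinda libraries reached 12.8 CPM at most and the Col-0 libraries 18.6 CPM at least (log2 fold -1.42 ± 0.26, edgeR adjusted p = 0.0223). BEE3 and BEE1, related factors induced by brassinosteroids, were both lower. BEE3 had 18.16, 25.96 and 27.8 CPM in Col-0 and 9.198, 12.5, 7.29 and 12.6 CPM in Δlinda (log2 fold -1.20 ± 0.20, edgeR adjusted p = 0.0198). BEE1 had 8.14, 17.3 and 10.5 CPM in Col-0 and 5.57, 4.72, 4.4 and 4.097 CPM in Δlinda (log2 fold -1.34 ± 0.28, edgeR adjusted p = 0.0416). ARL, a small protein that promotes cell expansion, had 30.4, 41.5 and 38.4 CPM in Col-0 and 8.53, 16.8, 4.47 and 14.2 CPM in Δlinda, a 3.33-fold lower level (log2 fold -1.74 ± 0.32, edgeR adjusted p = 0.0293). RAV2, a repressor of flowering also called TEM2, had 72.7, 122 and 116 CPM in Col-0 and 45.1, 66.4, 44 and 58.4 CPM in Δlinda (log2 fold -0.95 ± 0.19, edgeR adjusted p = 0.0342). AT3G46600, a GRAS family factor, had 68.2, 122 and 102 CPM in Col-0 and 62.1, 60.4, 43.9 and 63.7 CPM in Δlinda (log2 fold -0.76 ± 0.16, edgeR adjusted p = 0.0416).

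FLS2, the receptor of bacterial flagellin, had 26.9, 31.03 and 56.1 CPM in Col-0 and 10.5, 13.6, 6.71 and 18.8 CPM in Δlinda. It was 3.07-fold lower in Δlinda (log2 fold -1.62 ± 0.31, edgeR adjusted p = 0.0342), with Δlinda replicate 3 the lowest library. SAG101, a partner of the immune regulator EDS1, had 66.8, 97.1 and 95.9 CPM in Col-0 and 55.2, 50.3, 34.3 and 51.8 CPM in Δlinda (log2 fold -0.85 ± 0.16, edgeR adjusted p = 0.0198). NAC6, a NAC factor known as ORE1 that promotes leaf ageing, had 6.46, 7.98 and 14.3 CPM in Col-0 and 3.22, 3.29, 2.38 and 2.87 CPM in Δlinda (log2 fold -1.70 ± 0.36, edgeR adjusted p = 0.0416), and all 4 Δlinda libraries lay between 2.38 and 3.29 CPM. AT4G11521, annotated as related to receptor-like kinases, had 6.46, 13.96 and 9.63 CPM in Col-0 and 2.62, 6.28, 2.52 and 3.81 CPM in Δlinda (log2 fold -1.38 ± 0.28, edgeR adjusted p = 0.0416).

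The list of pattern-triggered immunity had all 11 members tested, 1 called lower and 0 higher, with a median of -0.65, where 0.11% of all genes were called lower and the median of all genes was 0.01. With single Zeocin libraries left out, its median ran from -1.01 without Col-0 replicate 1 to -0.23 without Col-0 replicate 2. The salicylic acid list had 11 of 16 tested, 1 called lower (0.11% of all genes) and 0 higher, with a median of -0.22. EFR, the receptor of bacterial elongation factor Tu, was chosen for mention after its values were seen. It had 8.98, 15.6 and 20.9 CPM in Col-0 and 6.45, 8.39, 6.71 and 9.77 CPM in Δlinda, with overlapping groups, and missed the threshold (log2 fold -0.95 ± 0.21, edgeR adjusted p = 0.0555). EDS1 and PAD4, the partners of SAG101, had log2 folds of -0.37 ± 0.13 and -0.40 ± 0.17 (adjusted p = 0.228 and 0.31). Nothing was called in the jasmonate list, where 13 of 16 genes were tested, the median was 0.07, and AOC1 and AOC2, allene oxide cyclases of jasmonate synthesis, had log2 folds of -0.70 ± 0.27 (edgeR adjusted p = 0.28) and -0.51 ± 0.32 (edgeR adjusted p = 0.514).

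NRT2.6, of the high affinity nitrate transporter family, had 11.6, 0.714 and 6.83 CPM in Col-0 and 0.403, 0.684, 0.721 and 0.934 CPM in Δlinda. It had the largest fold of the called genes (9.24-fold lower, log2 fold -3.21 ± 0.64, edgeR adjusted p = 0.04), but Col-0 replicate 2 sat among the Δlinda libraries. DESeq2 gave it no adjusted p with all 30 libraries and called it with only the 7 Zeocin libraries (DESeq2 adjusted p = 0.0457). FRO6, a ferric chelate reductase of leaves, had 71.9, 90.2 and 119 CPM in Col-0 and 33.4, 41.02, 50.2 and 56.7 CPM in Δlinda (log2 fold -1.05 ± 0.19, edgeR adjusted p = 0.0198), and all 7 of its entries carried restored decimals. MCA2, a protein linked to calcium uptake on mechanical stress, had 24.04, 25.5 and 34.8 CPM in Col-0 and 13.5, 15.97, 12.6 and 15.5 CPM in Δlinda (log2 fold -0.97 ± 0.20, edgeR adjusted p = 0.0416).

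The remaining lower genes code for enzymes and proteins of less defined function. AT1G49050, an aspartyl protease family protein, had 67.1, 107 and 96.6 CPM in Col-0 and 42.7, 56.5, 39.1 and 54.3 CPM in Δlinda (log2 fold -0.90 ± 0.16, edgeR adjusted p = 0.0198). AT1G62510, of the lipid-transfer protein superfamily, had 71.7, 50.5 and 60.7 CPM in Col-0 and 27.1, 21.2, 22.1 and 35.1 CPM in Δlinda (log2 fold -1.21 ± 0.22, edgeR adjusted p = 0.0198). AT2G39980, an HXXXD-type acyltransferase, had 17.3, 20.6 and 40.1 CPM in Col-0 and 3.89, 6.46, 6.71 and 11.3 CPM in Δlinda, a 3.68-fold lower level (log2 fold -1.88 ± 0.34, edgeR adjusted p = 0.0237). AT3G62550, of the adenine nucleotide alpha hydrolase-like superfamily, had 19.97, 38.5 and 49.95 CPM in Col-0 and 12.2, 10.4, 2.81 and 15.3 CPM in Δlinda (log2 fold -1.83 ± 0.37, edgeR adjusted p = 0.0416), lowest in Δlinda replicate 3. AT5G44580, an uncharacterised protein, had 132, 80.4 and 146 CPM in Col-0 and 45.1, 47.4, 39.7 and 64.1 CPM in Δlinda (log2 fold -1.28 ± 0.26, edgeR adjusted p = 0.0416). In each of these 5 genes the highest Δlinda library lay below the lowest Col-0 library.

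The 2 genes with higher levels in Δlinda were small in level. AT3G20015, another aspartyl protease family protein, had 12.2, 11.1 and 7.59 CPM in Col-0 and 13.6, 19.3, 27.6 and 21.9 CPM in Δlinda (log2 fold 0.9964 ± 0.20, edgeR adjusted p = 0.0342). AT4G39795, a protein with the domain DUF581, had 1.55, 0.909 and 0.8293 CPM in Col-0 and 3.42, 2.98, 3.53 and 4.02 CPM in Δlinda (log2 fold 1.66 ± 0.35, edgeR adjusted p = 0.0466). The groups did not overlap in either gene, and the Δlinda libraries of AT4G39795 stayed between 2.98 and 4.02 CPM.

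None of the 24 calls held whichever Zeocin library was left out. Without Col-0 replicate 1 all 24 stayed called and the count over all genes rose to 767, 338 higher and 429 lower (3.81% of 20137 tested). Without Col-0 replicate 3 or Δlinda replicate 3 the count was 0 (0%) in both cases, with 927 and 1750 genes at an unadjusted p under 0.05 (edgeR). Without Δlinda replicate 1 it was 1 (0.00503%), the higher gene AT3G20015. Without Col-0 replicate 2 it was 9 (0.0447%), of which 7 were among the 24. Without Δlinda replicate 2 it was 17 (0.0854%, 12 shared) and without Δlinda replicate 4 it was 42 (0.211%, 20 shared). Of the 24 genes 4 were called in 4 of the 7 fits (BEE3, FRO6, PIF3 and AT3G20015), 11 in 3, 6 in 2 and 3 in 1. The direction of all 24 stayed the same in every one of these fits.

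The log2 fold of BEE3 ran from -1.37 to -1.07 over the 7 fits. That of PIF3 ran from -1.61 to -1.11 and that of FLS2 from -1.88 to -1.23. Those of AT2G39980 and NRT2.6 ran from -2.19 to -1.43 and from -3.74 to -2.45. Col-0 replicate 3 was the highest library in PIF3, FLS2 and AT2G39980, and Col-0 replicate 1 in NRT2.6.

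In edgeR, though not in DESeq2 for most of the 24, the calls also depended on libraries outside the comparison. When only the 7 Zeocin libraries were fitted, or only the 14 mock and Zeocin libraries, edgeR called 0 genes (0%), with 1791 and 2303 at an unadjusted p under 0.05. DESeq2 called 203 genes with all 30 libraries (1.02%), 57 higher and 146 lower, and 140 with the 7 Zeocin libraries (0.704%), and 23 of the 24 were among each. The gene missing was NRT2.6 with all 30 libraries and AT3G62550 with the 7 (DESeq2 adjusted p = 0.166).

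**Figure D3:**
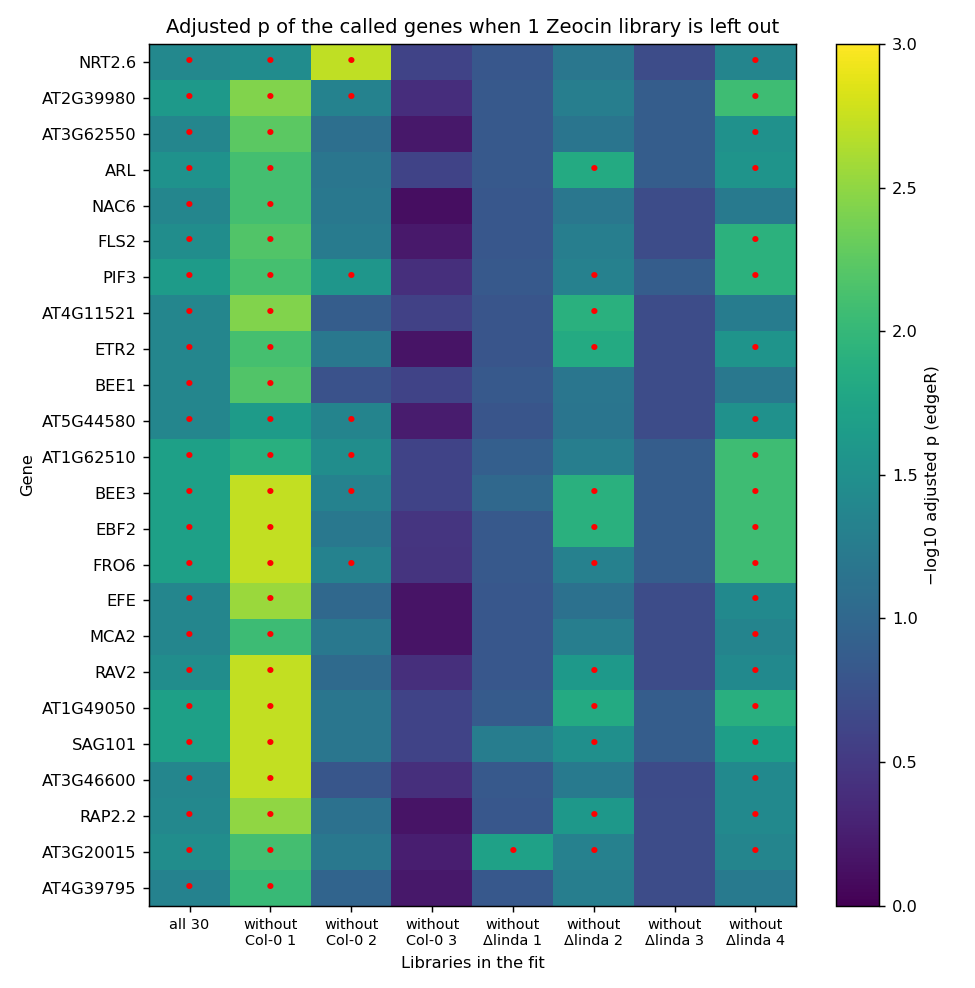
Negative log10 of the edgeR adjusted p (colour) of the 24 called genes, with all 30 libraries and with each of the 7 Zeocin libraries left out; a red dot marks an adjusted p under 0.05. All 24 genes are dotted without Col-0 replicate 1 and none without Col-0 replicate 3 or Δlinda replicate 3.

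The same genes were then read in the other conditions. Their contrasts share no sample with the Zeocin contrast, but their libraries entered the same fit and its estimate of the spread. In mock, 20 of the 24 had the direction seen after Zeocin, where 63.0% of all genes did, and 0 of 24 were called (0% of all genes were called there). In normal light 16 of 24 shared the direction (55.6% of all genes) and 0 were called, where 0.146% of all genes were. After UV-C 11 of 24 did (57.8% of all genes) and 0 were called, where 0.0201% were. The median log2 fold of the 24 was -1.21 after Zeocin, -0.18 in mock, -0.11 in normal light and -0.07 after UV-C. The 24 genes were chosen on the Zeocin contrast, so a larger difference there follows in part from that choice. The smaller differences in mock, normal light and UV-C are therefore no test of a difference limited to Zeocin. DESeq2 called 0 of the 24 in each of these 3 conditions, where it called 1 gene in mock (0.00502% of all genes), 142 in normal light (0.713%) and 8 after UV-C (0.0402%).

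A few genes stood out from that pattern. AT1G62510 had a value in mock of -1.02 ± 0.22, close to its value after Zeocin, with an unadjusted p of 8.41e-05 that did not pass the adjustment (edgeR adjusted p = 0.426). FRO6 had -0.40 ± 0.19 in mock and -0.49 ± 0.17 in normal light, and SAG101 had -0.40 ± 0.17 in mock. At an unadjusted p under 0.05 these 3 were the only ones of the 24 in mock, where 3.6% of all genes passed. In normal light FRO6, AT3G62550 (-0.83 ± 0.32) and AT1G49050 (-0.54 ± 0.17) did (8.98% of all genes), and after UV-C 0 did (7% of all genes). The ethylene genes EBF2 and ETR2 had -0.06 ± 0.20 and 0.16 ± 0.27 in mock, and EFE had -0.17 ± 0.21. FLS2 and PIF3 had 0.06 ± 0.31 and -0.09 ± 0.26 there. Both genes higher after Zeocin, AT3G20015 and AT4G39795, had -0.14 ± 0.26 and -0.45 ± 0.42 after UV-C.

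**Figure D4:**
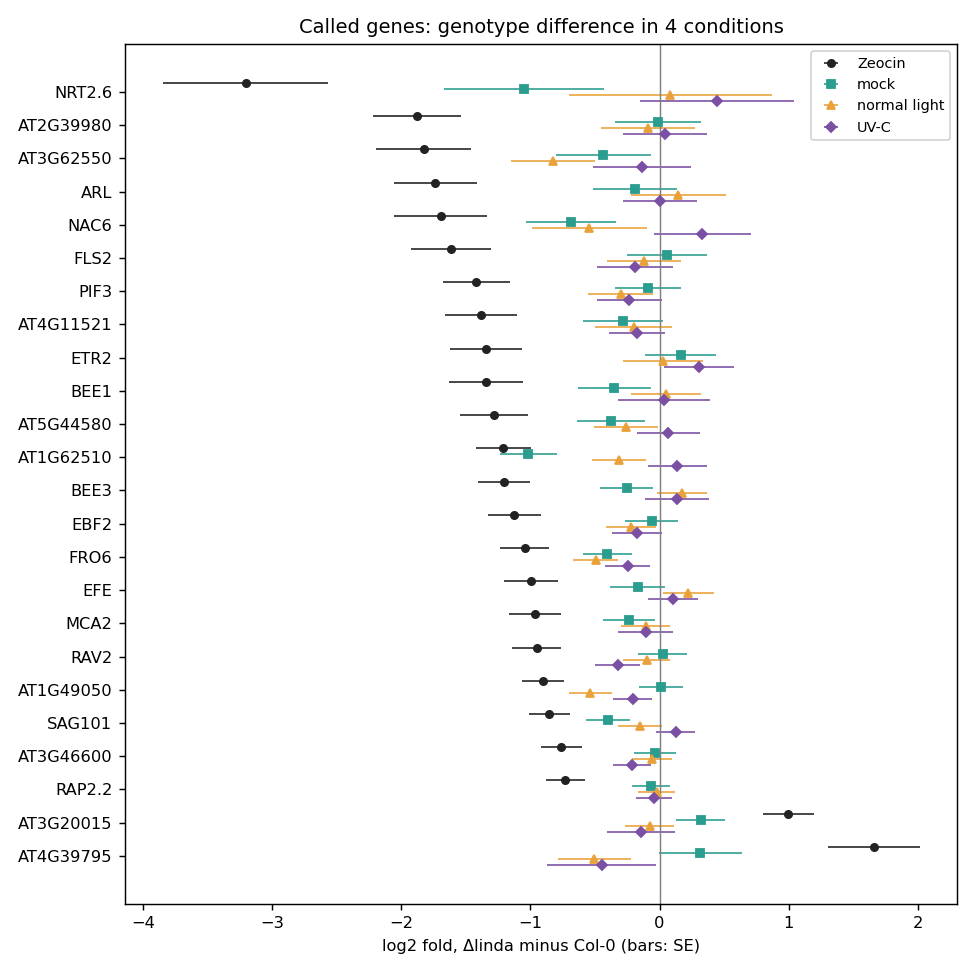
Log2 fold of Δlinda over Col-0 (points) ± SE (bars) of the 24 called genes after Zeocin, in mock, in normal light and after UV-C. The Zeocin values lie apart from the other conditions in most genes, which is no independent result, since the genes were chosen on the Zeocin contrast. AT1G62510 has nearly the same value in mock.

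The difference between the Zeocin and the mock contrast was tested directly as an interaction. It was called in 0 of 19917 genes by edgeR (0%) and in 0 by DESeq2 (0%), with 734 genes (3.69%) at an unadjusted p under 0.05 and a smallest adjusted p of 0.734. Among the 24 genes 21 had an unadjusted p under 0.05, which is no independent result, since they were chosen on the same Zeocin libraries. The largest of these were NRT2.6 (-2.16 ± 0.89), AT2G39980 (-1.87 ± 0.47) and FLS2 (-1.67 ± 0.44). For AT1G62510 the interaction was -0.19 ± 0.31. With the genes of unclear decimals kept at their most likely placement, 24 genes were called in the interaction, and without Col-0 replicate 2 there was 1, none of them among the 24 called after Zeocin.

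Flavonoid genes had the highest median of the other lists, 0.87, with 7 of 8 tested genes above 0 and 0 called. CHS, chalcone synthase at the entry of the pathway, had 359, 347 and 181 CPM in Col-0 and 472, 491, 683 and 418 CPM in Δlinda (log2 fold 0.80 ± 0.22, edgeR adjusted p = 0.116). CHIL, which assists chalcone isomerase, had 91.3, 88.8 and 40.5 CPM in Col-0 and 152, 128, 172 and 114 CPM in Δlinda (log2 fold 0.94 ± 0.23, edgeR adjusted p = 0.0821). FLS1, flavonol synthase, had 73.6, 66.01 and 21.9 CPM in Col-0 and 107, 111, 164 and 92.9 CPM in Δlinda (log2 fold 1.14 ± 0.26, edgeR adjusted p = 0.0649). Every Δlinda library lay above every Col-0 library in these 3 genes, where 8.76% of all tested genes had groups that did not overlap. Col-0 replicate 3 was the lowest. CHIL and FLS1 were named for the smallest p of the list and CHS after its values were seen, so their separation is no independent result. Without Col-0 replicate 1, 4 genes of the list were called higher (CHS, CHIL, FLS1 and DFR), where 1.68% of all genes were. Without Δlinda replicate 4 it was 1, where 0.211% of all genes were called in either direction. Without any other single Zeocin library it was 0. DESeq2 called 3 higher, where it called 0.286% of all genes higher.

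The cold and abscisic acid list had a median of 0.41 with 6 of 12 tested genes higher at an unadjusted p under 0.05, where 6.29% of all genes were, and 0 called. COR78, a cold and drought protein, had 77.8, 70.4 and 66.7 CPM in Col-0 and 143, 163, 144 and 134 CPM in Δlinda (log2 fold 1.03 ± 0.38, edgeR adjusted p = 0.244). NCED3, a rate-limiting enzyme of abscisic acid synthesis, had 0.776, 0.584 and 0.0638 CPM in Col-0 and 0.806, 1.18, 4.26 and 1.29 CPM in Δlinda (log2 fold 1.95 ± 0.67, edgeR adjusted p = 0.212). The groups did not overlap in either gene, where 8.76% of all tested genes had groups that did not overlap, and both were named for the smallest p. Δlinda replicate 3 was far the highest in NCED3.

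In the nutrient list 7 of 13 genes were tested and 0 called. NRT2.1, a nitrate transporter, had 9.5, 4.93 and 1.85 CPM in Col-0 and 8.86, 9.45, 31.6 and 15.6 CPM in Δlinda (log2 fold 1.59 ± 0.49, edgeR adjusted p = 0.171), with overlapping groups. DIN10, a gene of dark and sugar starvation, had 215, 268 and 492 CPM in Col-0 and 85.6, 133, 36.2 and 163 CPM in Δlinda (log2 fold -1.64 ± 0.49, edgeR adjusted p = 0.16), lower in every Δlinda library and lowest in replicate 3. In mock DIN10 had -0.9970 ± 0.50 and NRT2.1 had 2.01 ± 0.47.

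Growth, clock and cell cycle lists held 0 called genes each. Of the auxin and growth list EXPA5 and XTH9, genes of wall loosening and remodelling, had log2 folds of 0.54 ± 0.23 (edgeR adjusted p = 0.322) and 0.61 ± 0.27 (edgeR adjusted p = 0.342). Of the clock list TOC1 and PRR7, pseudo-response regulators, had log2 folds of -0.41 ± 0.18 (edgeR adjusted p = 0.327) and -0.52 ± 0.17 (edgeR adjusted p = 0.203). Of the G2/M list CYCB2;2, a mitotic cyclin, and MAD2, of the spindle checkpoint, had log2 folds of 0.47 ± 0.27 (edgeR adjusted p = 0.471) and 0.27 ± 0.18 (edgeR adjusted p = 0.521). Of the S phase list PCNA2, the replication clamp, and E2Fc, a repressing E2F factor, had log2 folds of 0.26 ± 0.16 (edgeR adjusted p = 0.511) and -0.28 ± 0.17 (edgeR adjusted p = 0.498). Their medians were 0.35, -0.19, 0.22 and 0.08 in that order.

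Stress lists were likewise without calls. APX1 and CAT2, which remove hydrogen peroxide, had log2 folds of -0.64 ± 0.39 (edgeR adjusted p = 0.503) and -0.35 ± 0.16 (edgeR adjusted p = 0.352). The mitochondrial genes NDB2, an alternative dehydrogenase, and NAC017, a retrograde regulator, had log2 folds of 0.35 ± 0.22 (edgeR adjusted p = 0.509) and -0.28 ± 0.10 (edgeR adjusted p = 0.242). The chaperones HSP70 and AT5G12030, a small heat shock protein, had log2 folds of 0.73 ± 0.36 (edgeR adjusted p = 0.386) and 1.23 ± 0.61 (edgeR adjusted p = 0.389), and both were lowest in Col-0 replicate 1. The medians of the oxidative, mitochondrial and chaperone lists were -0.15, -0.11 and 0.12.

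**Figure D5:**
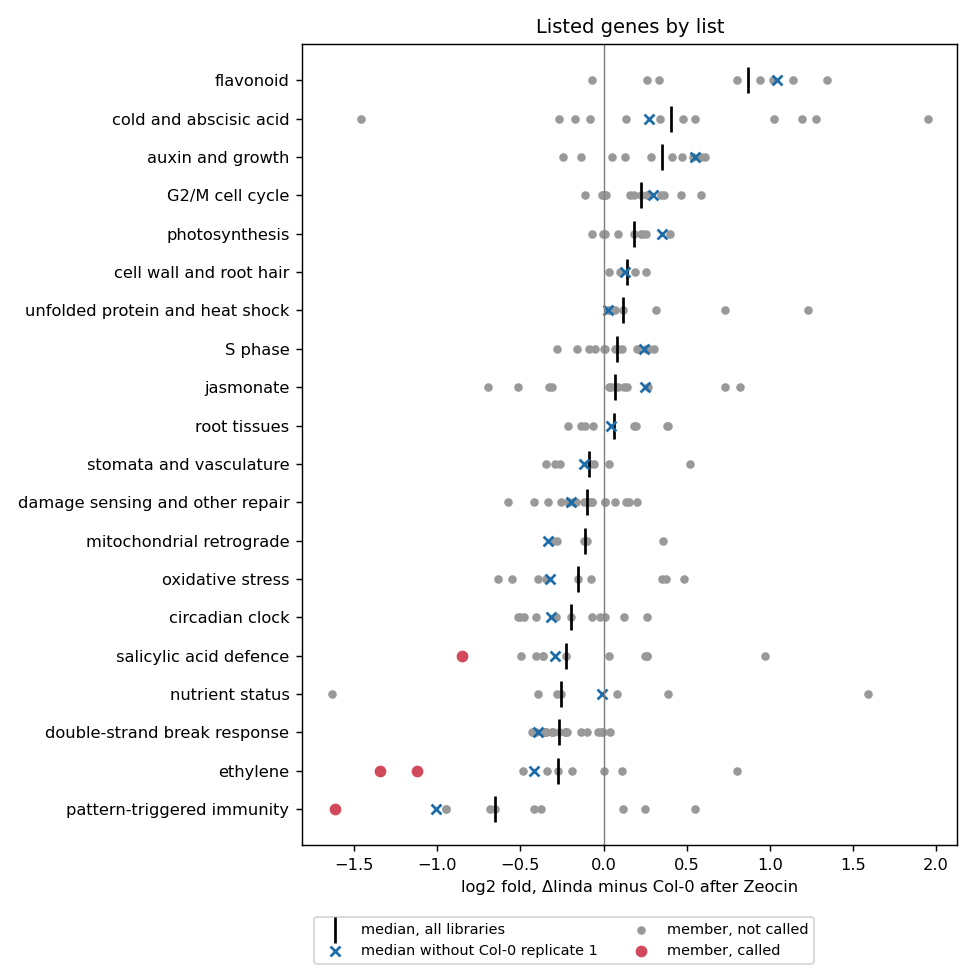
Log2 fold of Δlinda over Col-0 after Zeocin for each tested gene of 20 lists (grey points, red where called), with the list median over all libraries (black bar) and without Col-0 replicate 1 (blue cross). The called members are SAG101, FLS2, EBF2 and ETR2. Over all libraries flavonoid genes have the highest and pattern-triggered immunity genes the lowest median. Without Col-0 replicate 2, which is not drawn, the immunity median was -0.23.

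Markers of tissues were read to see what the seedlings held. Leaf genes were high in every library, with RCA, Rubisco activase, at 5661 to 8481 CPM, and root genes were present, with SCR, a regulator of the endodermis, at 35.5 to 47.7 CPM. Summed over the 9 tested photosynthesis genes the range was 26394 to 32225 CPM in Col-0 and 26782 to 38669 CPM in Δlinda, highest in Δlinda replicate 3, and the part of this in the results above was not tested. LHCA1 and PSBO1, of the photosystems, had log2 folds of 0.40 ± 0.20 (edgeR adjusted p = 0.39) and 0.23 ± 0.17 (edgeR adjusted p = 0.579). Of the root lists SHR and PLT1 had log2 folds of 0.20 ± 0.15 (edgeR adjusted p = 0.608) and 0.39 ± 0.33 (edgeR adjusted p = 0.653), and the root hair genes EXPA18 and RHD6 had log2 folds of 0.26 ± 0.44 (edgeR adjusted p = 0.85) and 0.19 ± 0.31 (edgeR adjusted p = 0.845). Of the stomata and vasculature list SEOR1, of sieve elements, and XCP1, of xylem, had log2 folds of -0.35 ± 0.13 (edgeR adjusted p = 0.232) and 0.52 ± 0.20 (edgeR adjusted p = 0.268). Flower, pollen and seed genes were near 0, and only PI passed the filter, at 0.287 to 0.940 CPM.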

How the data were processed

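RNA was sequenced from 30 libraries in 8 groups, and samples were grouped by title. Per the submitters' processing notes, the tools were Salmon 0.14.1.2, Trimmomatic 0.38.0 and FastQC 0.72. The transcript set, build and strand setting are not given in the sources used here, so reads of overlapping genes cannot be told apart and no coordinates or sequences are printed. For 68575 identifiers the authors deposited estimated counts that are not normalised. Estimates that were not whole lack their decimal mark, as read from the values.

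The mark was put back per gene by a Bayesian choice among 0 to 3 decimals, with libraries of a group sharing a level, and a gene was kept where every entry had a posterior above 0.99. The settings of this step were adjusted by hand over 5 versions after looking at misread rows and at library totals, whose range was known from earlier work, so the totals are no independent check. No genotype contrast had been fitted until the last of these. A further version, grouped by treatment without genotype, was made after the contrast had been seen and is used only as an alternative. Among the 20827 genes whose mean reached 10 counts, 2184 (10.5%) stayed unclear and were left out. In the kept genes 9.21% of entries above 0 in the Zeocin libraries received decimals. On simulated data 7.2% of genes were left out and 3 kept genes held a wrong entry; the simulation shares the assumptions of the method and is likely easier than the real table. Sharing levels within groups can draw replicates together.

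After rounding, edgeR 4.0.16 (R 4.3.3) was run as follows: all 30 libraries in 1 fit with 1 coefficient per group, filterByExpr (count 10, total 15), TMM, robust quasi-likelihood F test, Benjamini-Hochberg adjustment over 19917 genes, threshold 0.05. SE is the absolute log2 fold over the square root of F. DESeq2 1.42.0 was an alternative. Counts were also simulated for each gene on its own, with the spread estimated over all 30 libraries (19792 genes). There edgeR called 34.3% of genes changed 1.5-fold, 79.1% of those changed 2-fold and 97% of those changed 4-fold, with 10 false calls. The changed genes excluded those of lowest level. The simulation held no deviations shared by the genes of a library, so these rates need not hold for the real libraries. Symbols come from the TAIR10.1 gene table, which held 19734 of the 19917 identifiers. Genes were named by rule: every called gene, the called members of each of 22 lists or else the 2 with the smallest p, and the LINDA and double-strand break lists, of which 1 gene is not reported here. SOG1, EIN3, EFR, EDS1, PAD4, CHS, DFR, RCA and SCR fall outside this rule and were chosen after their values were seen. Genes and lists were chosen with earlier results of these data known. Mock Col-0 replicate 1 carries a genotype tag that contradicts its title. Correlations between Zeocin libraries of the same replicate number showed no pairing, which cannot exclude one.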

Additional observations from a re-analysis of the deposited data

Results flagged for a closer look

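In 3 named genes 1 of the 4 Δlinda libraries lay far from the others, by a gap whose share of the group's range passed Dixon's 95% critical value. Each time it was Δlinda replicate 3. AT3G46600 stood at 43.9 CPM there against 60.4 to 63.7 CPM in the other Δlinda libraries. NCED3 stood at 4.26 CPM against 0.806 to 1.29 CPM. LHCA1 stood at 5203 CPM against 3383 to 3617 CPM. Chance sets apart about 1 in 20 such groups, and 80 named genes were examined. Groups of 3 were not examined in this way, so the Col-0 libraries were not.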

How the results depend on the processing

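The count of 24 called genes depended on the processing. It was 203 by DESeq2, 140 by DESeq2 on only the 7 Zeocin libraries (chosen after seeing the data), 0 by edgeR with only the 7 Zeocin or only the 14 mock and Zeocin libraries, 10 without mock Col-0 replicate 1 and normal light Δlinda replicate 1, 69 with unclear genes kept, and 680 on the values as deposited without decimal marks. Leaving out each Zeocin library gave 0 to 767. With the replicate number as a block it was 71, where same-number correlations (-0.17, 0.28 and -0.30) showed no pairing but cannot exclude one. It was 23 with DESeq2 size factors and 24 without a filter on low counts (19 shared). It was 18 with decimals placed without groups and 18 with only genes free of restored decimals. With decimals placed by treatment, chosen after seeing the data, it was 24 (21 shared). The other 3 of the original genes, AT1G62510, FRO6 and EBF2, were left out there. The direction of the 24 stayed the same wherever they were tested. On the values as deposited 1 of the 24 was called after UV-C and 3 in the interaction, against 0 and 0 with the decimals restored. Over all genes the interaction had 24 calls with unclear genes kept, 1026 on the values as deposited, 1 without Col-0 replicate 2 and 0 in the other alternatives run. On the values as deposited the log2 fold of GMI1 became 7.08. The cause of the shifts between tools and library sets was not tested. In genes with clear decimals, shares of plastid and mitochondrial counts differed by 0.00289 and 0.00159 percentage points. With unclear genes kept they differed by 0.145 and 0.0201 points (exact permutation p = 0.571 and 0.514). With 3 against 4 libraries the exact p cannot go below 0.0286. Depth was similar in all 7 libraries, and genes with few counts, such as NRT2.6, carry wide errors.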
